A study of Homo sapiens with 12 samples.

Results

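Interferon-stimulated genes are a set of 55 human genes that cells switch on in response to interferon, taken here by symbol from a fixed list. Of these 55 genes, 50 are among the 12616 genes listed in the table of 12 libraries, and USP18, OASL, RSAD2, TRIM22 and EPSTI1 are not analysed here. The libraries came from MeWo and SkMel28, established human cutaneous melanoma lines, in which doxycycline (Dox) switches on a short hairpin RNA that targets MITF, a transcription factor of the melanocyte lineage. Each line was kept for 8 days without Dox (0 µg/ml, MeWo control and SkMel28 control) or with 1 µg/ml Dox (MeWo Dox and SkMel28 Dox), with 3 libraries in each of the 4 groups. No line without the hairpin was given Dox, so the drug, the hairpin and the fall of MITF cannot be told apart. The labels give EMEM as the medium of MeWo and RPMI as that of SkMel28, while the methods of the study name RPMI for its human lines, so line and medium cannot be told apart either. The replicate numbers do not say whether libraries came from separate cultures, and p-values then measure only the spread between these libraries, which may be technical.

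Interferons are cytokines released by cells that sense viral or other foreign nucleic acid. Type I interferon binds the receptor IFNAR1 and IFNAR2 and, through the kinases JAK1 and TYK2, activates a complex with STAT2 and IRF9 that binds a promoter element called the interferon-stimulated response element (ISRE). Interferon gamma acts through IFNGR1 and IFNGR2 and a different promoter element, the gamma-activated site (GAS). The induced genes encode sensors of viral RNA, enzymes that modify or degrade RNA, proteins that block virus entry or release, and the ubiquitin-like modifier ISG15 with its ligases. Many tumour lines express part of this programme without added interferon, and the labels name none as added here.

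Values are reads normalised to the effective library size, in reads per 1e6, written as the 3 libraries of a group in replicate order or as mean ± SD (n = 3). Each library held 2568187 to 3714608 reads, so that 1 read equals a value of 0.278 to 0.389, and intervals and limits from read numbers cover counting error only. Changes are differences in log2(value + 1) with their standard error (SE), estimated with limma and tested across all 12616 genes with Benjamini-Hochberg adjustment, and called means an adjusted p under 0.05. Folds are ratios of group means of the values. MITF itself (chromosome 3, 69739456 to 69968336, + strand, hg38) stood at 657, 663 and 708 in MeWo control and 451, 354 and 371 in MeWo Dox, and at 861, 739 and 792 in SkMel28 control and 575, 578 and 552 in SkMel28 Dox. It fell in MeWo (log2 −0.79, SE 0.11, adjusted p 6.49e-05) and in SkMel28 (log2 −0.49, SE 0.11, adjusted p 0.00705), where leaving the mean-variance trend out of the fit ended the call. The 3 MeWo Dox libraries were less alike than those of the other groups, with a correlation across all genes of 0.960 to 0.976 against 0.979 to 0.985, and of 0.957 to 0.976 across the 50 members, which are not independent replicates. All 8 melanocyte markers searched for were listed, and their summed value was 13079 to 13274 against 6492 to 8191 with Dox in MeWo and 11198 to 12508 against 6721 to 6944 in SkMel28. In MeWo 7 of the 8 were called lower and DCT rose (log2 0.91, adjusted p 2.71e-05). For TYR and SOX10 (adjusted p 0.0418 and 0.0455) the MeWo groups overlapped. Their Dox replicate 1 was at 389 and 312, against controls of 346 to 398 and 289 to 296. In SkMel28 MITF, PMEL, MLANA and GPR143 fell. Without passing the test, TYRP1 and DCT were at log2 −0.52 and −0.24 (adjusted p 0.0568 and 0.207). TYR and SOX10 were at 0.28 and 0.27, also without passing it (adjusted p 0.486 and 0.43). The difference between the lines in the change was called for DCT (1.15), MLANA (−1.10) and TYRP1 (−0.90). Of 7 leukocyte markers only CD68 was listed. It fell in SkMel28 from 78.2 to 100.9 in control to 18.7 to 23.0 in Dox (log2 −2.03, SE 0.23, adjusted p 1.71e-05) and stood at 132 to 150.6 and 57.5 to 147 in MeWo control and Dox (adjusted p 0.143), a difference between the lines that was called (1.52, adjusted p 0.0107). PTPRC, the pan-leukocyte gene, was not among the listed genes. Of 4 keratinocyte markers only KRT10 was listed, of 5 fibroblast markers DCN and LUM (MeWo control 41.5 to 47.8, MeWo Dox 9.85 to 19.2, SkMel28 control 10.9 to 13.3 and SkMel28 Dox 6.04 to 8.91), and of 4 endothelial markers 0. The part of these marker changes in the results below was not tested.

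The promoter sequences are shown first, because the ISRE is the element that the interferon complex with STAT2 and IRF9 recognises. RefSeq windows of 300 bases on GRCh38.p14, 250 before and 50 after the transcription start, were found for 44 of the 55 genes. The core of the ISRE, searched as GAAA, any 2 bases and GAAA on both strands with overlapping matches counted, occurred in 26 of these 44 windows (59.1%). Across all 35116 RefSeq promoter windows it occurred in 3.57%. The following stretches of 60 bases upstream of the start come from genes described below, written 5′ to 3′ along the strand of the gene, with the ISRE core in capitals (on the opposite strand it reads TTTC, 2 bases, TTTC).
PLSCR1 (chr3:146544652-146544711, − strand): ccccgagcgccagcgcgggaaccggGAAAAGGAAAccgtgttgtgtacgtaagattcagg
ISG15 (chr1:1013365-1013424, + strand): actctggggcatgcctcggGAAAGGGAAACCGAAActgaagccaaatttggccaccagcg
HERC5 (chr4:88457020-88457079, + strand): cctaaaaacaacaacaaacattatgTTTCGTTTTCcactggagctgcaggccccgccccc
IFITM3 (chr11:320861-320920, − strand): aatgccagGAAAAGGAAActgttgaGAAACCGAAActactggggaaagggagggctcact
OAS3 (chr12:112938414-112938473, + strand): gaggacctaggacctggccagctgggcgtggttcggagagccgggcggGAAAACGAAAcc
IFI27 (chr14:94110616-94110675, + strand): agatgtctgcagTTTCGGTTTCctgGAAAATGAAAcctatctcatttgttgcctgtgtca
IFI44 (chr1:78649729-78649788, + strand): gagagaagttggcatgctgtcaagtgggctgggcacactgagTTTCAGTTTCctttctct
BST2 (chr19:17405720-17405779, − strand): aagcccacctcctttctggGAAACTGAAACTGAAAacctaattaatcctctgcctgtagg
In the printed stretches of ISG15 and BST2 adjoining matches overlap and share a GAAA, while in IFITM3 and IFI27 the matches lie apart. Upstream of the printed bases, HERC5 also holds overlapping cores that begin at −125 and −119 from the start, and OAS3 a core at −143. Of these 8 genes, BST2 was called between the lines and not with Dox, and the other 7 were called with Dox in at least 1 line. The ISRE core was present in 5 of the 9 genes with a window that were lower in MeWo Dox, in 4 of the 6 that were lower in SkMel28 Dox, and in 16 of the 25 listed genes with a window that were called in neither line. The GAS motif, searched as TTC, any 3 bases and GAA, occurred in 11 of the 44 windows (25%) and in 7.66% of all promoters. The E-box CACGTG, a letter sequence that MITF can bind, occurred in 5 windows (IRF9, HERC5, TRIM25, ISG20 and ADAR; 11.4%) and in 7.26% of all promoters, and CATGTG or its complement in 2 (PARP9 and IFI35; 4.55%) against 11.1%. A match of these letters is a description of the window and not a bound site.

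With Dox, members were called in both directions in each line. In MeWo 13 of the 50 members were called (26%, against 16.7% of all genes), 3 higher (8.58% of all genes) and 10 lower (8.12% of all genes). The higher members were IRF1, IFITM2 and IFI35, and the lower ones STAT2, HERC5, HERC6, OAS2, TRIM21, SP100, SP110, IFI27, IFI44 and PLSCR1. In SkMel28 9 members were called (18%, against 10.9% of all genes), IFITM3 and GBP2 higher (5.88% of all genes) and ISG15, TRIM25, OAS2, OAS3, DTX3L, XAF1 and PLSCR1 lower (5.04% of all genes). PLSCR1 and OAS2 were called in both lines (4%, against 4.08% of all genes), and 30 members were called in neither (60%, against 76.5% of all genes). The median change of the members was −0.21 in MeWo and −0.06 in SkMel28, beside 0 and 0.00286 for all genes. The 3 Dox libraries did not overlap the 3 control libraries for 18 members in MeWo (28.8% of all genes) and for 12 in SkMel28 (32.3% of all genes). In these bulk samples, fewer cells that express a gene and less RNA per cell cannot be told apart.

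The MeWo split depended on whether the spike-in RNAs set the scale. It was 4 higher and 8 lower with edgeR quasi-likelihood (16.2% of all genes called). With upper-quartile factors it was 3 and 9 (16.1%), and with DESeq2 3 and 7 (14.8%). Scaled to the spike-in RNAs, the call count stayed at 13 (19.6% of all genes) but with 6 higher and 7 lower. The share of all genes called in each direction was not worked out for this scaling. The median over all genes then shifted by 0.22 (MeWo), −0.08 (SkMel28) and 0.32 (difference between the lines). The MeWo count moved together with the share of all genes called. It was 18 without Dox replicate 1 (31.0% of all genes), 6 without Dox replicate 3 (10.3%), 8, 5 and 7 without control replicate 1, 2 and 3 (12%, 10.2% and 10.5%), and 5 when MeWo was fitted alone (6.44%). No call of a member changed sign under any alternative run.

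**Figure D1:**
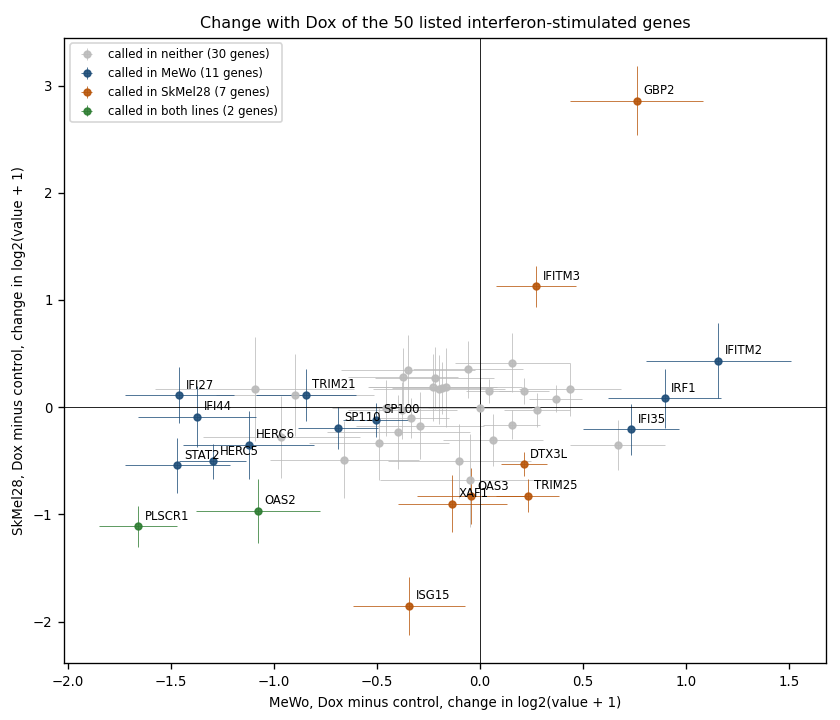
Change with Dox of each of the 50 listed members, as the difference in log2(value + 1), in MeWo (horizontal axis) and SkMel28 (vertical axis), with bars of 1 SE and colours for the line in which the member was called. PLSCR1 and OAS2, called in both lines, lie low in both, GBP2 and ISG15 stand at the top and bottom of the SkMel28 axis, and the 30 members called in neither line lie within 1.09 of 0 in MeWo and within 0.68 in SkMel28.

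PLSCR1 encodes phospholipid scramblase, an interferon-inducible membrane and nuclear protein with antiviral activity (chromosome 3, 146515180 to 146544856, − strand). Its values were 105, 107 and 119.8 in MeWo control and 46.6, 22.7 and 37.9 in MeWo Dox. In SkMel28 they were 70.2, 73.9 and 69.7 in control and 33.8, 33.8 and 29.9 in Dox. All Dox libraries lay below all control libraries of their line. The mean fell by 67.7% in MeWo (log2 −1.66, SE 0.19, adjusted p 8.83e-06) and fell by 54.4% in SkMel28 (log2 −1.11, SE 0.19, adjusted p 0.000806), and both calls held in all 22 alternatives. The difference between these changes was −0.55 (SE 0.27) and was not called (adjusted p 0.213). The promoter above holds 1 ISRE core and, elsewhere in its window, a GAS match.

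The transcription factors of the response moved apart in MeWo, where 2 of the 4 listed factors were called and in opposite directions. STAT2, the transactivating subunit of the interferon complex (chromosome 12, 56341597 to 56360203, − strand), stood at 101, 97.1 and 104 in MeWo control and 59.4, 34.9 and 22 in MeWo Dox. It stood at 59.9, 40.9 and 67.1 in SkMel28 control and 32.4, 38.1 and 42 in SkMel28 Dox. The groups were separate in MeWo, with a wide spread among the Dox libraries, and overlapped in SkMel28, where Dox replicate 3 lay above control replicate 2. STAT2 fell by 61.6% in MeWo (log2 −1.47, SE 0.25, adjusted p 0.000606), a call lost only when MeWo was fitted alone, and its change of −0.54 in SkMel28 was not called (adjusted p 0.203). IRF1, a factor induced by interferon gamma, rose from 2.78 ± 0.729 to 6.01 ± 1.23 with Dox in MeWo (log2 0.89, SE 0.27, adjusted p 0.0319), and its SkMel28 means were 2.32 and 2.57 (adjusted p 0.902). The MeWo call for IRF1 was lost on leaving out Dox replicate 1 (0.76) or 3 (0.91) or 1 of the MeWo controls, whichever it was (0.72 to 0.99), in the fit of MeWo alone, with DESeq2 and with a pseudocount of 0.1. IRF7 and IRF9, the master factor for interferon genes and the DNA-binding subunit of the complex, had group means of 3.52 to 6.19 and of 1.77 to 3.22, and neither was called with Dox in either line.

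None of the 5 sensor genes was called with Dox in either line (p under 0.05 before adjustment for 0 of them in each line with limma). They encode receptors of double-stranded RNA (DDX58, IFIH1 and the regulator DHX58), the helicase DDX60 and the DNA sensor IFI16. IFI16 was at 223 ± 15.2 in MeWo control, 249.8 ± 42.5 in MeWo Dox, 239 ± 26.3 in SkMel28 control and 214 ± 29.4 in SkMel28 Dox. DDX58, which encodes RIG-I, held 6 and 5 reads in the MeWo control and Dox groups and 44 and 62 in those of SkMel28.

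Of the 5 listed genes for ISG15 and its conjugation, HERC5 and HERC6 fell in MeWo, ISG15 and TRIM25 fell in SkMel28, and 3 were called for a difference between the lines in the change. ISG15 itself, the ubiquitin-like modifier (chromosome 1, 1001138 to 1014540, + strand), was at 15.3, 23.2 and 16.1 in SkMel28 control and 4.45, 4.68 and 3.63 in SkMel28 Dox. In MeWo it was at 6.62, 6.99 and 6.15 in control and 2.87, 6.06 and 6.77 in Dox. The SkMel28 groups were far apart while the MeWo groups overlapped, with Dox replicate 1 the lowest MeWo library. ISG15 fell 4.28-fold in SkMel28 (log2 −1.85, SE 0.27, adjusted p 0.000199), a call kept in all 22 alternatives, and its MeWo difference of −0.35 was not called (adjusted p 0.421). The MeWo change minus the SkMel28 change was 1.51 (SE 0.38, adjusted p 0.0262), with the larger fall in SkMel28. That difference was no longer called on leaving out MeWo Dox replicate 2 (1.39) or 3 (1.32), 1 of the MeWo controls (1.46 to 1.54), SkMel28 Dox replicate 1 (1.54) or 3 (1.42) or SkMel28 control replicate 2 (1.33), nor with a pseudocount of 0.1.

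HERC5, the main ligase that attaches ISG15 to proteins (chromosome 4, 88457119 to 88506163, + strand), fell in MeWo. Its values were 15, 13.6 and 15.5 in MeWo control and 5.43, 6.06 and 4.74 in MeWo Dox, and 51.2, 49.8 and 55.2 in SkMel28 control and 38.3, 36.4 and 34.4 in SkMel28 Dox. In both lines the Dox libraries were below the controls. The fall in MeWo was 2.72-fold (log2 −1.30, SE 0.16, adjusted p 2.71e-05) and was called in all 22 alternatives, while the change in SkMel28 (−0.51, SE 0.16, adjusted p 0.0568) was not called. The difference of −0.79 (SE 0.23, adjusted p 0.0477) was near the threshold, and 14 of 21 alternatives ended the call, among them scaling to the spike-ins (−0.45), a pseudocount of 5 (−0.46), DESeq2 (−0.92), MeWo Dox replicate 3 left out (−0.71), any single MeWo control (−0.75 to −0.84) and any single SkMel28 library (−0.75 to −0.83). Its relative HERC6 was low, at 2.52 ± 0.345 in MeWo control, 0.698 ± 0.611 in MeWo Dox, 6.46 ± 2.15 in SkMel28 control and 4.72 ± 1.03 in SkMel28 Dox. HERC6 fell in MeWo (log2 −1.12, SE 0.32, adjusted p 0.0228), a call resting on 23 and 6 reads and lost with edgeR, DESeq2, a pseudocount of 5 (−0.40), the line fitted alone, and on leaving out Dox replicate 3 (−0.78) or 1 of the MeWo controls (−1.04 to −1.16).

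TRIM25, a ubiquitin and ISG15 ligase that acts with RIG-I (chromosome 17, 56836387 to 56914080, − strand), moved in SkMel28. In SkMel28 it stood at 68.2, 74.3 and 70.9 in control and 38.3, 39.8 and 41.1 in Dox. In MeWo it stood at 124, 102 and 101 in control and 97, 151 and 142 in Dox. The SkMel28 libraries fell into separate groups, and in MeWo Dox replicate 1 lay below the controls while replicates 2 and 3 lay above them. TRIM25 fell by 44.1% in SkMel28 (log2 −0.82, SE 0.15, adjusted p 0.00169), and the MeWo change of 0.23 (SE 0.15, adjusted p 0.332) differed from it by 1.05 (SE 0.22, adjusted p 0.00762). The fall in SkMel28 and the difference were called in every alternative run. UBE2L6, the enzyme that passes ISG15 to its ligases, was called in neither line (changes of 0.06 and −0.30, adjusted p 0.902 and 0.501).

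Of the membrane restriction factors, IFITM3 rose in SkMel28 and IFITM2 in MeWo. IFITM3 (chromosome 11, 319676 to 329475, − strand), which hinders the fusion of incoming viruses, was at 38.7, 34.3 and 34.5 in SkMel28 control and 78.7, 70.9 and 89.7 in SkMel28 Dox. In MeWo it was at 102, 105 and 107 in control and 193, 109 and 95.2 in Dox. The SkMel28 groups were separate, and among the MeWo Dox libraries replicate 1 was far above the controls while replicate 3 was below them. The rise in SkMel28 was 2.23-fold (log2 1.13, SE 0.19, adjusted p 0.000814) and held in all 22 alternatives, the change in MeWo was not called (0.27, adjusted p 0.369), and the difference between the lines missed the threshold (−0.86, SE 0.27, adjusted p 0.0628). Some 50-base words in the last 300 bases of the IFITM3 transcript also occur in transcripts of other genes, IFITM1 and IFITM2 among them. The largest share with any 1 other gene was 17.5%. How reads with several matches were treated is not given in the sources used here.

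IFITM2 (chromosome 11, 303655 to 309397, + strand), a close relative with the same function, was at 6.05, 6.99 and 7.13 in MeWo control and 31.6, 11.7 and 11.2 in MeWo Dox, with 1 read in the SkMel28 controls and 5 in the SkMel28 Dox libraries. Every MeWo Dox library lay above every MeWo control, and replicate 1 was well above replicates 2 and 3. IFITM2 rose in MeWo (log2 1.16, SE 0.35, adjusted p 0.0323), and without Dox replicate 1 the change was 0.69 and no longer called. It was also not called without any single MeWo control (1.09 to 1.19), with MeWo fitted alone, or with a pseudocount of 0.1. IFITM1 held 10, 5, 13 and 9 reads in the 4 groups in the order MeWo control, MeWo Dox, SkMel28 control and SkMel28 Dox. All 50-base words of its last 300 bases also belong to another annotated gene that overlaps it on the same strand, so its reads are uncertain. BST2, tetherin, which holds budding viruses at the cell surface, was called with Dox in neither line.

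The 4 IFIT genes, whose products bind viral RNA and block its translation, were not called with Dox in either line by limma, although 1 of them in MeWo and 0 in SkMel28 had an unadjusted p under 0.05. IFIT1 in MeWo had values of 6.05, 6.99 and 10 in control and 4.15, 0.758 and 6.1 in Dox, a change of −1.09 (SE 0.48, adjusted p 0.133). The Dox libraries spread widely and replicate 3 overlapped the controls. Dox minus control in MeWo and in SkMel28 was −0.38 and −0.03 for IFIT3, −0.23 and 0.19 for IFIT5, and −0.35 and 0.35 for IFIT2.

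The oligoadenylate synthetases make the messenger that activates RNase L, and those called fell. OAS2 (chromosome 12, 112978395 to 113011723, + strand) had values of 0.864, 1.55 and 0.972 in MeWo control, which amount to 10 reads, and 0 reads in all 3 MeWo Dox libraries. In SkMel28 it had 14.2, 7.93 and 8.05 in control and 6.83, 3.01 and 4.23 in Dox. The groups did not overlap in either line. OAS2 was at least 3.18-fold lower in MeWo Dox, taking 3 reads over the group as the limit that a count of 0 allows (log2 −1.08, SE 0.30, adjusted p 0.0208). It fell by 53.4% in SkMel28 (log2 −0.97, SE 0.30, adjusted p 0.0472). The MeWo call was lost without Dox replicate 3 (−1.08), without control replicate 2 (−0.94) and with a pseudocount of 5 (−0.29). In SkMel28 16 of 22 alternatives ended the call, among them edgeR, DESeq2, the line fitted alone, spike-in scaling (−1.05), a pseudocount of 0.1, any single SkMel28 control left out (−0.72 to −1.1), SkMel28 Dox replicate 2 (−0.74) or 3 (−0.94), MeWo Dox replicate 3 or any single MeWo control (−0.97 each).

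OAS3 (chromosome 12, 112938051 to 112976460, + strand) was at 12, 20 and 14.2 in SkMel28 control and 8.91, 7.35 and 7.86 in SkMel28 Dox, and at 5.18, 5.05 and 2.91 in MeWo control and 3.19, 4.55 and 4.74 in MeWo Dox. Only the SkMel28 groups were separate. It fell by 47.7% in SkMel28 (log2 −0.83, SE 0.26, adjusted p 0.0492) and its MeWo difference of −0.04 was not called (adjusted p 0.939). The SkMel28 call was lost in 13 of 22 alternatives, among them the line fitted alone, spike-in scaling (−0.92), a pseudocount of 0.1, any single SkMel28 library left out (−0.64 to −0.99), and MeWo Dox replicate 3 or MeWo control replicate 1 or 2 (−0.83 each). OAS1 was called in neither line (−0.66 and −0.49, adjusted p 0.232 and 0.458). The dynamin-like GTPases MX1 and MX2, which trap viral nucleoproteins, were also not called, and in MeWo Dox MX1 held 8 reads, most of them in replicate 1.

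GBP2 had the largest rise among the members in SkMel28. It encodes a guanylate-binding protein, a GTPase of the interferon gamma response that attacks pathogen vacuoles (chromosome 1, 89106132 to 89150456, − strand). Its values were 2.78, 2.54 and 1.53 in SkMel28 control and 19.3, 26.7 and 22.1 in SkMel28 Dox. In MeWo they were 0.576, 0 and 1.62 in control and 1.6, 2.27 and 1.35 in Dox, which are 7 and 15 reads. The SkMel28 Dox libraries stood far above all others, while the MeWo groups overlapped. The rise in SkMel28 was 9.93-fold (log2 2.86, SE 0.32, adjusted p 1.48e-05) and was called in all 22 alternatives. The MeWo change was 0.76 (SE 0.32, adjusted p 0.118), and the difference of −2.10 (SE 0.46, adjusted p 0.0109) was called by limma but not by edgeR (−2.12), DESeq2 (−2.08), edgeR with upper-quartile factors (−2.15) or with a pseudocount of 0.1 (−1.40). GBP1, of the same family, had 0 reads in all 6 MeWo libraries and 3.22 and 3.21 in SkMel28 control and Dox, a change of −0.01 (adjusted p 0.992).

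DTX3L, a ubiquitin ligase that works with the ADP-ribosyltransferase PARP9, fell in SkMel28 (chromosome 3, 122564338 to 122575203, + strand). In SkMel28 it stood at 232, 266 and 265 in control and 166, 183 and 176 in Dox. In MeWo it stood at 51.5, 48.2 and 50.5 in control and 54.9, 61.4 and 58.3 in Dox. The groups were separate in each line, with Dox below control in SkMel28 and above it in MeWo. The SkMel28 mean fell by 31% (log2 −0.53, SE 0.11, adjusted p 0.00432), the MeWo change of 0.21 was not called (adjusted p 0.213), and the difference was 0.74 (SE 0.16, adjusted p 0.00944). The SkMel28 fall and the difference held in every alternative run. PARP9, the divergent neighbour of DTX3L on chromosome 3, was not called (−0.18 in MeWo and 0.18 in SkMel28, adjusted p 0.66 and 0.726), and neither were PARP10, PARP12 and PARP14.

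All 3 listed genes of the TRIM and nuclear body group fell in MeWo, and 0 were called in SkMel28. SP110, a nuclear body protein (chromosome 2, 230165186 to 230225729, − strand), was at 21, 25.6 and 24 in MeWo control and 19.2, 13.3 and 11.2 in MeWo Dox, and at 28.7, 24.4 and 29.9 in SkMel28 control and 22.3, 26.7 and 23.3 in SkMel28 Dox. SP100, a core protein of these bodies (chromosome 2, 230415942 to 230545606, + strand), was at 42.9, 49 and 47.6 in MeWo control and 41.5, 27.3 and 30.1 in MeWo Dox, and at 50.1, 47.9 and 49 in SkMel28 control and 51.4, 41.1 and 43.5 in SkMel28 Dox. In MeWo the Dox libraries of both genes lay below the controls, by little in replicate 1, and in SkMel28 the groups overlapped. SP110 fell by 38.3% (log2 −0.69, SE 0.19, adjusted p 0.022) and SP100 fell by 29.1% (log2 −0.50, SE 0.16, adjusted p 0.0385). TRIM21, the cytosolic antibody receptor, fell from 6.48 ± 1.62 to 3.09 ± 0.0880 in MeWo (log2 −0.85, SE 0.24, adjusted p 0.0238) and stood at 6.54 ± 0.428 and 7.25 ± 1.34 in SkMel28 control and Dox. Scaling to the spike-ins ended all 3 calls (SP110 −0.43, SP100 −0.24, TRIM21 −0.63), as did the fit of MeWo alone and leaving out Dox replicate 2 (−0.64, −0.38 and −0.84), Dox replicate 3 (−0.53, −0.45 and −0.84), control replicate 2 (−0.63, −0.47 and −0.75) or control replicate 3 (−0.67, −0.49 and −0.75). The SP100 call was also lost without MeWo control replicate 1 (−0.56), SkMel28 Dox replicate 2 or SkMel28 control replicate 1 or 3 (−0.50 each), with edgeR and DESeq2 and without the mean-variance trend, and the TRIM21 call with DESeq2. The SAMD9 pair, which restricts poxviruses, was not called in either line.

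Among the remaining members, IFI27, IFI35 and IFI44 were called in MeWo and XAF1 in SkMel28. IFI27, a small hydrophobic protein of mitochondria and other membranes (chromosome 14, 94104836 to 94116695, + strand), was at 157, 157 and 158 in MeWo control and 57.1, 56.9 and 55.9 in MeWo Dox. In SkMel28 it held 9 reads in the control and 11 in the Dox libraries, with values of 0.835, 0.317 and 1.92 and 0.891, 0.668 and 1.81. The MeWo libraries of each group were nearly equal and the groups far apart. IFI27 fell 2.78-fold in MeWo (log2 −1.46, SE 0.26, adjusted p 0.000843), kept in all 22 alternatives. The difference to the SkMel28 change (−1.57, SE 0.37, adjusted p 0.0171) compares this fall with a group near 0 and was lost with edgeR (−1.70), DESeq2 (−1.69), upper-quartile factors (−1.73), a pseudocount of 0.1 (−1.77) and without MeWo control replicate 2 (−1.57).

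IFI44, an interferon-induced cytoplasmic protein, fell from 4.45 ± 0.505 to 1.14 ± 0.493 in MeWo (log2 −1.37, SE 0.29, adjusted p 0.00287), a call kept in all 21 alternatives that tested it. Its SkMel28 means were 4.12 ± 1.01 and 3.9 ± 1.54 (change −0.09, adjusted p 0.898). IFI44L, its neighbour, held 14 reads in MeWo control and 3 in MeWo Dox, a ratio of means of 0.203 (95% counting interval 0.0413 to 0.804), and was not called (adjusted p 0.0945). IFI35, a cytoplasmic partner of NMI (chromosome 17, 43006740 to 43014456, + strand), was at 8.93, 8.55 and 8.1 in MeWo control and 9.26, 20.1 and 17.3 in MeWo Dox, and at 24.8, 29.8 and 30.7 in SkMel28 control and 20.8, 27.7 and 25.1 in SkMel28 Dox. In MeWo the Dox libraries were above the controls, replicate 1 only just, and in SkMel28 they overlapped. IFI35 rose in MeWo (log2 0.73, SE 0.23, adjusted p 0.0404), a call lost in 12 of 22 alternatives: the fit of MeWo alone, the fit with no trend, and leaving out Dox replicate 2 (0.52) or 3 (0.63), 1 of the MeWo controls (0.70 to 0.76), SkMel28 Dox replicate 2 or 3 or any single SkMel28 control (0.73 each).

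XAF1, a pro-apoptotic partner of the caspase inhibitor XIAP, was near the limit of detection, with 14 reads in SkMel28 control, 3 in SkMel28 Dox, 1 in MeWo control and 0 in MeWo Dox. The ratio of SkMel28 means was 0.208 (95% counting interval 0.0382 to 0.743), and the change was called (log2 −0.90, SE 0.26, adjusted p 0.0365). It was lost in 11 of 20 alternatives, among them edgeR, spike-in scaling (−0.93), both other pseudocounts (−1.89 and −0.29), any single SkMel28 Dox library left out (−0.89 to −0.91) and SkMel28 control replicate 2 (−0.70) or 3 (−0.99). A gene on the other strand, PRAL, overlaps the end of XAF1, and the strand used for counting is not given in the sources used here. Neither LGALS3BP, a secreted galectin-binding glycoprotein, nor IFI6, a membrane protein that hinders viral replication, was called with Dox. LGALS3BP was at 772 ± 60.6 and 901 ± 130.0 in MeWo control and Dox and at 317 ± 20.8 and 353 ± 32.9 in SkMel28. The exonuclease ISG20, the RNA-editing enzyme ADAR and the nucleotide kinase CMPK2 were called with Dox in neither line.

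**Figure D2:**
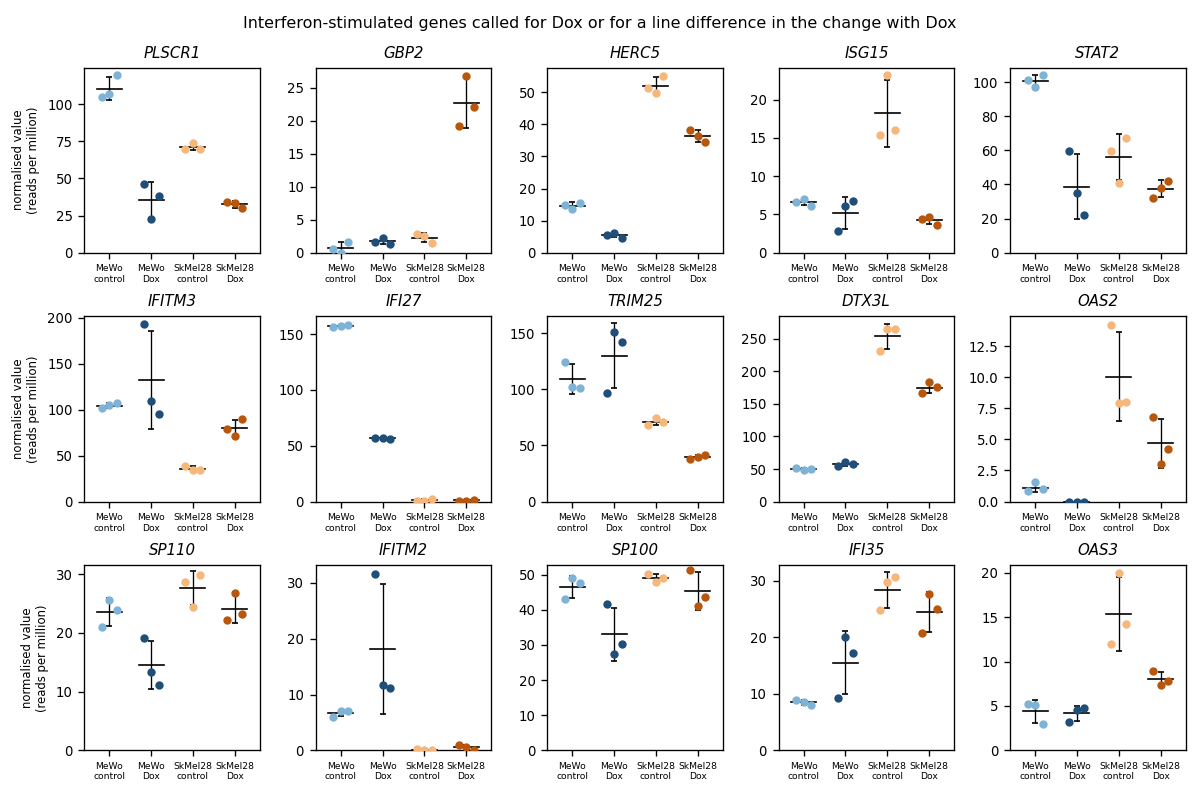
Normalised value per library (reads per 1e6, linear axis from 0) of the 15 members called with Dox or for the difference between the lines and with a mean of at least 10 in 1 group. Points are the 3 libraries of each group, and the line and bar are mean and SD. PLSCR1 is lower with Dox in both lines, ISG15, TRIM25 and DTX3L in SkMel28 and IFI27 and STAT2 in MeWo, while GBP2 is high only in SkMel28 Dox.

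Whether the lines differed in their response was tested by the change in MeWo minus the change in SkMel28. It was called for 6 of the 50 members (12%, against 7.09% of all genes), with 3 above 0 (ISG15, TRIM25 and DTX3L; 3.71% of all genes) and 3 below 0 (GBP2, IFI27 and HERC5; 3.38% of all genes). The median over the members was −0.25, beside −0.02 over all genes. TRIM25 and DTX3L were the members whose difference was called in all 21 alternatives. Without MeWo Dox replicate 1 the count was 16, including these 6 (24.7% of all genes), without MeWo control replicate 2 it was 3 (3.56% of all genes), and with DESeq2 it was 3 of the 32 members that received an adjusted p (7.79% of all genes).

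Without Dox, the lines differed in many members and in many of all genes, in both directions. SkMel28 control minus MeWo control was called for 31 of the 50 members (62%, against 51.4% of all genes), 19 higher in SkMel28 (26.6% of all genes) and 12 lower (24.8% of all genes). For 34 members the 3 libraries of the lines did not overlap (62.1% of all genes). The median difference was 0.13 for the members and 0.00 for all genes. This comparison shares its control libraries with the changes above, so that they are not independent. By role, 4 of the 5 listed genes of ISG15 conjugation were higher in SkMel28 and TRIM25 was lower, all 3 listed OAS genes and both GBP genes were higher, as were 3 of the 5 PARP and DTX3L genes, and 2 of the 4 IFIT genes were lower. Spike-in scaling moved the median of all genes by 0.13 here and gave 20 higher and 10 lower members, with 46.5% of all genes called.

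BST2, tetherin (chromosome 19, 17402939 to 17405630, − strand), was at 0.864, 0.777 and 1.3 in MeWo control, 9 reads in all, and at 149.8, 222 and 196 in SkMel28 control (log2 6.58, SE 0.23, adjusted p 4.14e-13). With Dox it remained apart, at 1.28, 3.41 and 2.03 in MeWo and 143, 134 and 162 in SkMel28. IFI27 showed the opposite order, with 157 ± 0.738 in MeWo control and 1.02 ± 0.816 in SkMel28 control (log2 −6.37, SE 0.26, adjusted p 3.74e-12). Among members with a mean of at least 10 in a control group, the next highest in SkMel28 relative to MeWo were OAS2 (2.34), DTX3L (2.32), PARP9 (2.0) and PARP14 (1.90), with folds of 8.9, 5.07, 4.29 and 3.92. PARP14 is an ADP-ribosyltransferase like PARP9. On the same condition, those lower in SkMel28 were led after IFI27 by ISG20 (−1.77), IFITM3 (−1.52), LGALS3BP (−1.28) and IFIT3 (−1.14), with inverse folds of 3.49, 2.92, 2.44 and 2.32. All 10 differences were called in the 21 alternatives run, with adjusted p-values in limma from 4.14e-13 for BST2 to 0.00162 for IFIT3. GBP1 was at least 9.77-fold higher in SkMel28 control, against the limit of 3 reads over the MeWo group. Members at low levels were common: 23 of the 50 had a group mean under 10 everywhere, and only 12 reached 100 in any group.

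**Figure D3:**
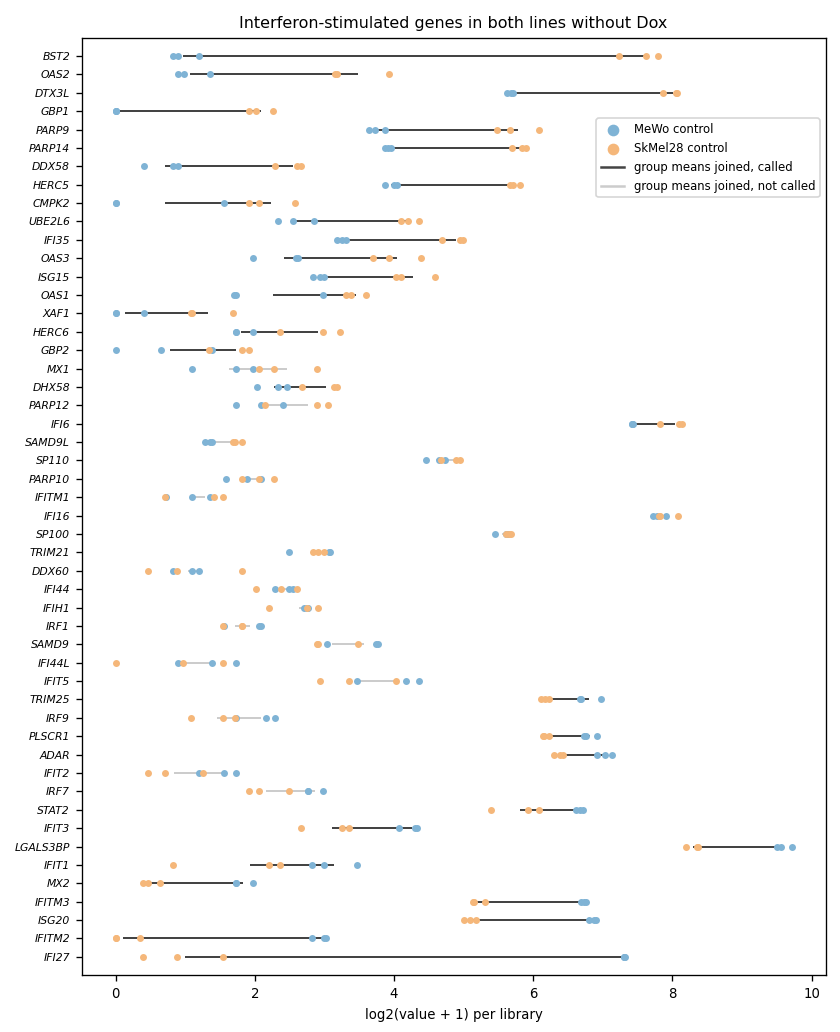
Log2(value + 1) of the 50 listed members in the 3 MeWo control and 3 SkMel28 control libraries (points), ordered by the fitted difference, with lines joining the group means (dark where called). BST2 at the top is near 1 in MeWo and above 7 in SkMel28, IFI27 at the bottom is the reverse, and 31 of the 50 lines are dark.

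The rest of the pathway was followed with a list of 59 further genes, of which 40 were listed. Of the 9 interferon genes on it 0 were listed, and every listed feature reached a value of 1 or more in 3 or more libraries. With Dox 8 of the 40 were called in MeWo (20%, against 16.7% of all genes), 4 higher and 4 lower, and 2 in SkMel28 (5%, against 10.9% of all genes), RNF125 higher and MAVS lower.

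The receptor genes called rose in MeWo. IFNGR2, a chain of the interferon gamma receptor, was at 90.1, 91.7 and 103 in MeWo control and 202, 179 and 179 in MeWo Dox, with 182 ± 4.47 and 196 ± 13.5 in SkMel28 control and Dox. It rose in MeWo (log2 0.97, SE 0.11, adjusted p 6.96e-06), and the MeWo change exceeded the SkMel28 change by 0.86 (SE 0.15, adjusted p 0.00279), both in every alternative. IFNAR1, of the type I receptor, rose from 48.1 ± 7.83 to 78.9 ± 18.3 with Dox in MeWo (log2 0.69, SE 0.17, adjusted p 0.0111), not called without Dox replicate 2 (0.52), without control replicate 3 (0.55) or with MeWo fitted alone. IFNAR2, IFNGR1 and IL10RB were not called in either line.

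Downstream of the receptors, the kinase gene JAK2 fell in MeWo (8.26 ± 1.41 in control and 3.16 ± 1.21 in Dox, log2 −1.18, SE 0.23, adjusted p 0.00173) and STAT3, a factor of interleukin signalling, rose from 60.8 ± 4.56 to 149 ± 51.2 (log2 1.22, SE 0.23, adjusted p 0.00141). Both calls were lost in the fit of MeWo alone. For STAT3 the difference between the lines was called (1.33, SE 0.33, adjusted p 0.0219), though not without the mean-variance trend or without MeWo Dox replicate 2 (1.1) or 3 (1.26), MeWo control replicate 2 (1.31) or 3 (1.29), SkMel28 Dox replicate 2 (1.13) or SkMel28 control replicate 2 (1.15). On the induction side, MAVS, the mitochondrial adaptor of the RNA sensors, fell in SkMel28 (236 ± 19.5 in control and 138 ± 9.78 in Dox, log2 −0.77, SE 0.17, adjusted p 0.00528), and in MeWo the change was −0.00396 (adjusted p 0.999). TRAF3, an adaptor below it, fell in MeWo (33.7 ± 1.82 in control and 19.7 ± 3.8 in Dox, log2 −0.76, SE 0.16, adjusted p 0.00345), a call lost with spike-in scaling (−0.50) and in the fit of MeWo alone.

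RNF125, a ubiquitin ligase that marks RIG-I for degradation, rose in both lines. It was at 3.46, 3.5 and 2.91 in MeWo control and 12.1, 17.1 and 12.2 in MeWo Dox, and at 42.3, 49.8 and 39.1 in SkMel28 control and 84, 90.2 and 75.8 in SkMel28 Dox. All Dox libraries were above all controls of their line. The rise was 4.19-fold in MeWo (log2 1.77, SE 0.18, adjusted p 2.62e-06) and 1.91-fold in SkMel28 (log2 0.92, SE 0.18, adjusted p 0.00273), both called in all 22 alternatives, and the difference was not called (0.85, adjusted p 0.0518). Among the further targets, TRIM14, an adaptor of MAVS, fell in MeWo (10.5 ± 1.64 in control and 4.86 ± 2.66 in Dox, log2 −1.07, SE 0.30, adjusted p 0.0198) and the helicase HELZ2 from 51.9 ± 12.8 to 30.8 ± 6.19 (log2 −0.72, SE 0.21, adjusted p 0.0239). Both calls were lost with spike-in scaling (TRIM14 −0.84, HELZ2 −0.46), with MeWo fitted alone and without Dox replicate 3 (−0.72 and −0.72) or control replicate 3 (−1.0 and −0.77). TRIM14 was also lost without control replicate 2 (−1.02), and HELZ2 without Dox replicate 2 (−0.59) or control replicate 1 (−0.54) and without the mean-variance trend.

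**Figure D4:**
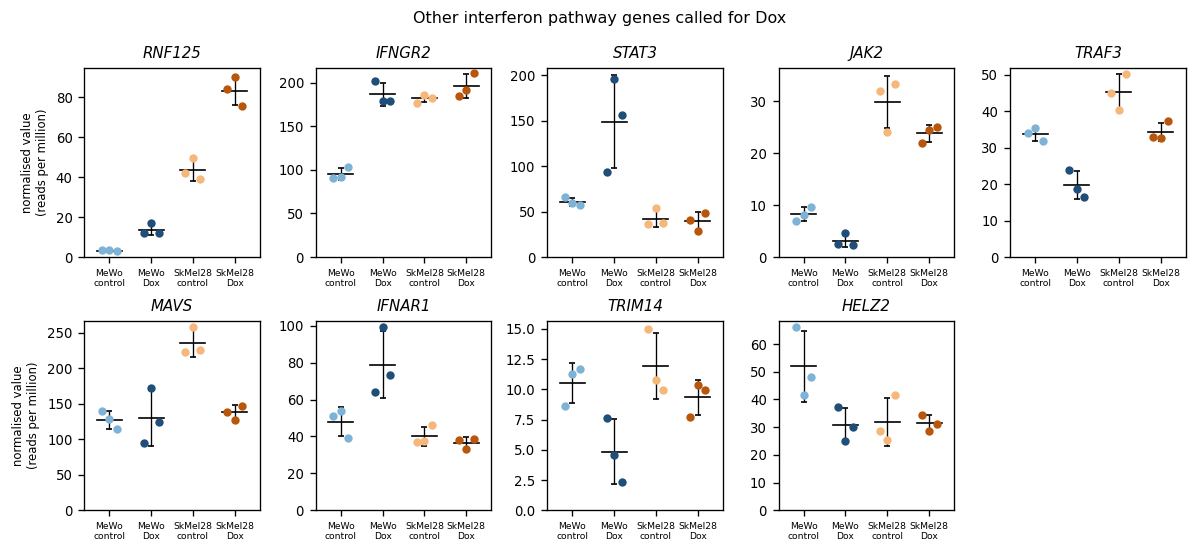
Normalised value per library (reads per 1e6, linear axis from 0) of the 9 further interferon pathway genes called with Dox in at least 1 line. Points are the 3 libraries of each group, and the line and bar are mean and SD. RNF125 is higher with Dox in both lines, IFNGR2 is higher in MeWo Dox, and MAVS is lower in SkMel28 Dox.

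Some values carry an uncertainty from the position of the genes, since 3′ end reads are counted near the end of transcripts. In addition to IFITM1 and IFITM3, the genes DDX58, IRF9 and IFI6 share 50-base words of their last 300 bases with other annotated genes. The largest share with any 1 gene was 91.6%, 55.0% and 66.5%. An annotated gene on the same strand overlaps the end of each of these 3. None of these 3 genes was called with Dox in either line.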

How the data were processed

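RNA of 12 libraries was sequenced from the 3′ ends of transcripts, so values were not divided by transcript length. The submitters' processing notes name FastQC 0.11.7, cutadapt 2.8, STAR 2.5.1b, edgeR and the build hg38, and the counting tool, the strand setting and the treatment of reads with several matches are not given in the sources used here. The signal values deposited by the authors are edgeR-normalised counts, reads divided by the effective library size and given per 1e6, for 12616 genes and 67 spike-in RNAs. Reads were recovered from them as whole numbers (100% of values within 0.1 of a whole number), 2568187 to 3714608 per library, of which 5.69% to 8.55% were spike-ins.

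The comparisons used R 4.3.3 and limma 3.58.1 on the scale log2(value + 1) (4 group means, mean-variance trend, two-sided, Benjamini-Hochberg adjustment over 12616 genes, called at 0.05). Alternatives were edgeR 4.0.16 quasi-likelihood with TMM or upper-quartile factors and DESeq2 1.42.0 on the recovered reads, scaling to the spike-ins, pseudocounts of 0.1 and 5, a filter of at least 5 in at least 3 libraries (10368 genes), no trend, a replicate block, each line alone, and each of the 12 libraries left out. Limits from 0 reads take 3 reads over the group, and counting intervals are exact at 95%. Gene positions are from GENCODE release 44 and promoters from RefSeq.

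Members called with Dox or for the difference between the lines are given library by library where a group mean reached 10, and by group means otherwise, with the 5 largest differences each way between the lines and the 9 further pathway genes called with Dox. A gene of the pathway list is not reported here. The members and lists were chosen with earlier results of these data known.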

Additional observations from a re-analysis of the deposited data

Results flagged for a closer look

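For 6 members the change with Dox differed between the lines by the interaction test of limma (change in MeWo minus change in SkMel28, on log2(value + 1), adjusted over all genes). The difference was 1.51 for ISG15, where −0.35 was fitted in MeWo and −1.85 in SkMel28. It was 1.05 for TRIM25 (0.23 and −0.82) and 0.74 for DTX3L (0.21 and −0.53). It was −2.10 for GBP2 (0.76 and 2.86), −1.57 for IFI27 (−1.46 and 0.11) and −0.79 for HERC5 (−1.30 and −0.51). DTX3L was higher than every control in 3 of 3 MeWo Dox libraries and lower than every control in 3 of 3 SkMel28 Dox libraries. With 3 libraries a group, no test for a single library far from the others was run.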

How the results depend on the processing

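Of the 28 calls of members with Dox or for the difference between the lines, 12 were kept in every alternative run, 16 were lost in at least 1, 6 in most of them, and 0 changed direction. The count of members called in MeWo was 13 and fell to 5 when the line was fitted alone (6.44% of all genes), and ranged from 5 (without control replicate 2, 10.2% of all genes) to 18 (without Dox replicate 1, 31.0%) when 1 library was left out. The count for the difference between the lines was 6. Under DESeq2 it was 3 of the 32 members given an adjusted p, and 7.79% of all genes, with or without an adjusted p, were called. When 1 library was left out it ranged from 3 (without MeWo control replicate 2, 3.56% of all genes) to 16 (without MeWo Dox replicate 1, 24.7%). A fit of 1 line or without a library has fewer libraries to estimate the spread. The counts moved both ways in such fits, and the cause was not tested. In SkMel28 the count stayed between 6 and 11, with 6.21% to 16.2% of all genes called. Between the lines without Dox it stayed between 27 and 33, with 45.1% to 56.6% of all genes called. Scaled to the spike-ins the members called were 13 in MeWo (19.6% of all genes), with 6 higher and 7 lower against 3 and 10. They were 6 in SkMel28 (7.36% of all genes). For the difference they were 7 (12% of all genes), with 5 above and 2 below 0 against 3 and 3. Between the lines they were 30 (46.5% of all genes). The member medians were 0.00, −0.14, −0.00 and 0.24 in this order. For this scaling the share of all genes called in each direction was not worked out. With the replicate block the counts were 13, 6, 5 and 31 (15.7%, 9.44%, 6.5% and 50.5% of all genes). The named calls of OAS2, OAS3 and XAF1 in SkMel28 and of the difference for HERC5 were then not made. Deviations of libraries with the same number from their group means had correlations of −0.18 to 0.22. These deviations also hold counting error, so they cannot tell whether the numbers pair the libraries. Depth limits the low members: 23 of the 50 had a mean under 10 in every group, where 3 reads equal up to 1.17.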
